A study of Arabidopsis thaliana with 21 samples.

Results

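Binding peaks of an altered GLABRA2 protein that lacks its leucine zipper, gl2_dZip, were set against those of gl2_Amo, another altered form of the same protein. GLABRA2 (GL2) belongs to class IV of the homeodomain leucine zipper family (HD-Zip), whose members regulate genes in the epidermis of plants. What Amo stands for is not given in the labels. Peaks on chromosomes 1 to 5 that overlapped a peak of the gl2-5 null mutant by 1 bp or more were removed, which left 1165 gl2_dZip peaks and 3231 gl2_Amo peaks. These 4396 peaks were taken from 10293 peaks on the 5 chromosomes in 6 lists. A peak is called shared when it overlapped a peak of the other list by at least 1 bp, and private otherwise.

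As background, GL2 promotes leaf trichome formation and keeps root epidermal cells in non-hair files from forming hairs. HD-Zip proteins bind DNA through the homeodomain, and the leucine zipper next to it lets them pair as dimers. Class IV members also carry a START domain, a lipid-binding fold, in the part of the protein that follows the zipper.

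Seedlings of Arabidopsis thaliana (Columbia), aged 10 days, were profiled by sequencing of chromatin immunoprecipitated (ChIP-seq) with an anti-GFP antibody that also recognises the enhanced yellow fluorescent protein (EYFP). The groups were EYFP:gl2_dZip (2 ChIP libraries), EYFP:gl2_Amo (3), wild-type EYFP:GL2 (3) and the gl2-5 null mutant without a transgene (2), each with 1 input library. For recurrence, the lists of EYFP:gl2_dSTART (2 ChIP libraries) and EYFP:gl2_E375G R392M (3) were also used, each with 1 input. The labels give the altered forms by name alone. Every transgene was carried in the gl2-5 homozygous background after floral dip, so no group had the resident GL2 function. The wild-type transgene rescued the gl2 phenotype, and none of the altered forms gave a wild-type phenotype. The labels do not give the promoter or the number of lines behind a transgene. Whole seedlings were used, so the lists hold signal of all tissues that carried the protein, and fewer bound cells cannot be told apart from weaker binding in each cell.

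Depth and background differed between the lists before any comparison. The merged gl2_dZip ChIP alignment held 54369870 tags, of which 1248287 remained after the caller kept 1 tag per position. The gl2_Amo alignment held 70376472 tags, of which 538666 remained. The ratio of retained ChIP tags to retained input tags was 1.29 for gl2_dZip and 0.49 for gl2_Amo. The GL2 list rested on 352707 retained tags and the gl2-5 list on 227071. The deposited false discovery rate (FDR), which the caller obtains by exchanging ChIP and input, was 5% or less for 0 of 1165 gl2_dZip peaks and for 3218 of 3231 gl2_Amo peaks. It was 100% for 923 gl2_dZip peaks. Each list came from merged libraries, so there was no SD between replicates and no difference between genotypes was tested. Wilson intervals at 95% are given for shares. They reflect counting error alone, as if adjacent peaks were independent of each other.

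The gl2_dZip and gl2_Amo lists met at 415 of 1165 gl2_dZip peaks (35.6%, interval 32.9 to 38.4%) and at 512 of 3231 gl2_Amo peaks (15.8%, interval 14.6 to 17.1%). The other 750 gl2_dZip peaks and 2719 gl2_Amo peaks were private. The gl2_Amo peaks covered 0.731% of the chromosomes, and 3.44% of the gene-poor bins described next. The bases in both lists, 248602 bp, were 45.9% of the gl2_dZip peak bases and 28.5% of the gl2_Amo peak bases. Removal of gl2-5 peaks took 94 of 1259 gl2_dZip peaks (7.47%) and 302 of 3533 gl2_Amo peaks (8.55%).

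Most shared peaks lay where genes are sparse. The chromosomes were divided into 240 bins of 500 kb, and 39 bins whose number of protein-coding genes was under 50% of the median were called gene-poor. Gene-poor bins held 381 of 415 shared gl2_dZip peaks (91.8%) and 453 of 750 private ones (60.4%), beside 71.6% of all gl2_dZip peaks. They held 462 of 512 shared gl2_Amo peaks (90.2%) and 1283 of 2719 private ones (47.2%), beside 54% of all gl2_Amo peaks. A single bin, chr3:13500001-14000000, with 2 protein-coding genes, held 100 shared gl2_dZip peaks (24.1%). It held 119 of all 1165 gl2_dZip peaks, of which 84% were shared, and 237 of all 3231 gl2_Amo peaks. The 5 fullest bins, picked for their shared gl2_dZip peaks, held 57.3% of those shared peaks. Among the other bins, called gene-rich, chr4:2500001-3000000, with 76 protein-coding genes, held 11 of 34 shared gl2_dZip and 26 of 50 shared gl2_Amo peaks. On chromosome 3, 55.5% of gl2_dZip peaks were shared, against 18.1% on chromosome 2. Without the fullest bin, the share of gl2_dZip peaks that were shared was 30.1%.

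Shared peaks were longer and held more tags than private peaks of the same list. A longer peak meets the 1 bp rule more easily, so the rule itself favours long peaks among the shared. The median length was 533 bp for shared and 196 bp for private gl2_dZip peaks, and 422 bp for shared and 144 bp for private gl2_Amo peaks. The median tag count was 95 for shared and 16 for private gl2_dZip peaks, and 39 for shared and 7 for private gl2_Amo peaks. Tags are not scaled to depth, so they were compared within a list. The deposited fold enrichment, a ratio to local background, ran the other way. Its median was 8.75 in shared and 16 in private gl2_dZip peaks, and 10.8 in shared and 17.6 in private gl2_Amo peaks.

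**Figure D1:**
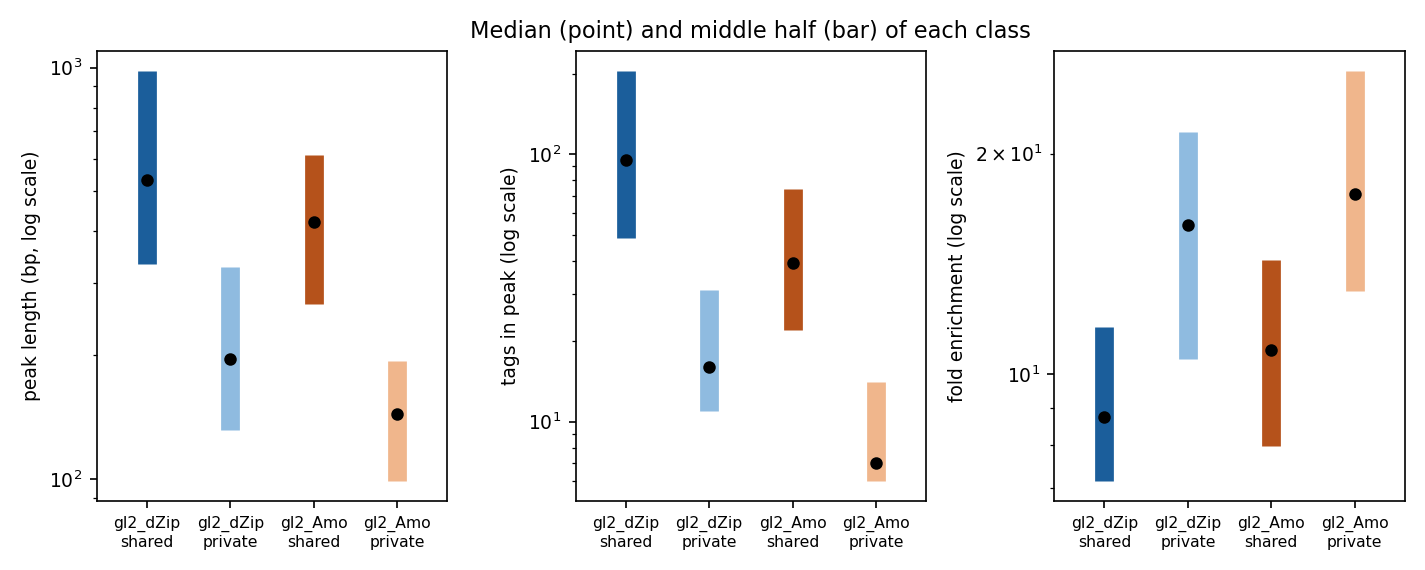
Length in bp, tags in the peak and fold enrichment (all on log scales) for shared and private peaks of gl2_dZip and gl2_Amo; points are medians and bars run from the lower to the upper quartile of the peaks in a class. Shared peaks have the higher median length and tag count in both lists, and private peaks the higher median fold enrichment. The 1 bp overlap rule itself favours longer peaks.

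The share of peaks that were shared followed peak length, which the 1 bp rule alone would favour. With 50% reciprocal overlap, 23.4% of gl2_dZip and 8.45% of gl2_Amo peaks were shared. Of gl2_dZip peaks up to 200 bp long, 8.85% were shared, against 34.9% of those over 200 to 500 bp, 66% over 500 to 1000 bp and 88.1% over 1000 bp. Bin type moved with it as well. Among peaks over 200 to 500 bp, 151 of 370 gl2_dZip peaks in gene-poor bins (40.8%) and 5 of 77 in gene-rich bins (6.49%) were shared. The score of a peak, minus 10 times the log10 of its p-value, also tracked sharing, which was 68% in the top score class of gl2_dZip peaks (n = 291) and 17.8% in the bottom class (n = 292), of 4 classes split by quartiles.

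**Figure D2:**
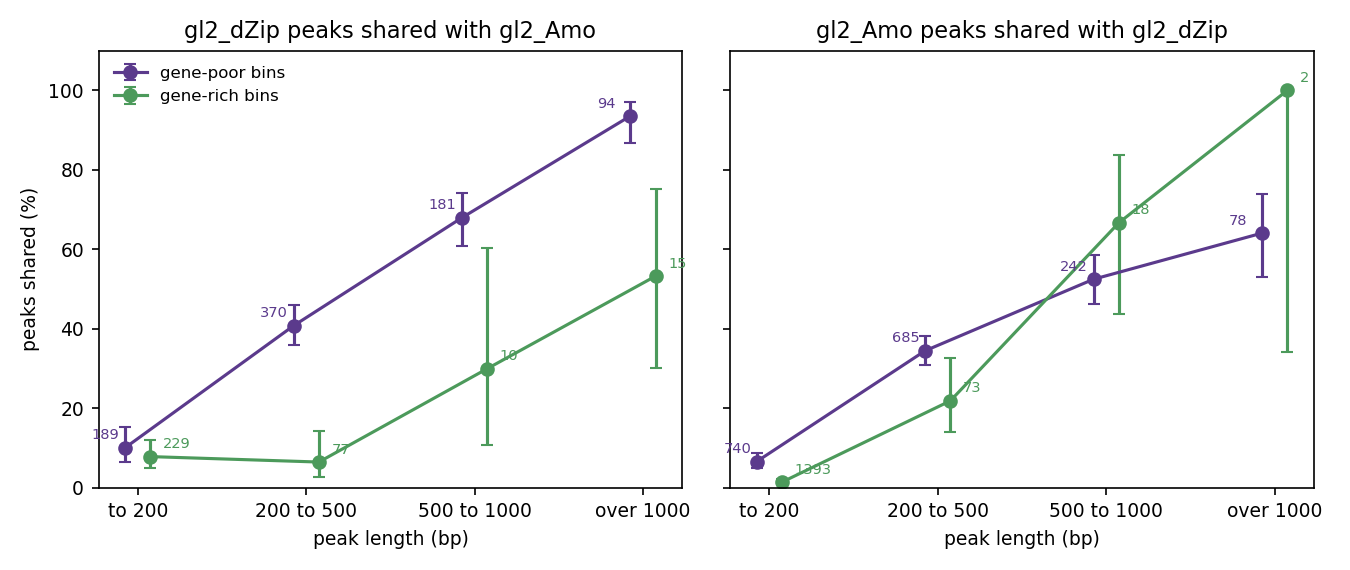
Percent of gl2_dZip peaks (left) and gl2_Amo peaks (right) shared with the other list, by peak length in bp and by bin type; points are shares, bars are 95% Wilson intervals and numbers are peaks in the class. In gene-poor bins the gl2_dZip share is 10.1% up to 200 bp and 93.6% over 1000 bp. Gene-rich classes over 500 bp hold few peaks. The 1 bp overlap rule itself favours longer peaks.

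Within pairs that matched one to one, the summits lay close together. There were 545 overlapping pairs, of which 294 joined 1 peak of each list. Their summits were a median of 18 bp apart, and 185 pairs (62.9%) were within 50 bp. In the 26 pairs in gene-rich bins the median was 5 bp, and in the 268 pairs in gene-poor bins it was 20 bp. Pairs were chosen for overlap, so the lengths of the peaks limit these distances. The median length of all shared gl2_dZip peaks was 149 bp in gene-rich and 545 bp in gene-poor bins. Across the 294 pairs, which share their genome positions, Spearman's rho was 0.781 for tags, 0.684 for length and 0.394 for fold enrichment. The gl2_Amo fold was the higher one in 193 of 294 pairs (65.6%), with folds not adjusted for the unequal depth of the lists. Elsewhere a wide gl2_dZip peak spanned several gl2_Amo peaks: 88 gl2_dZip peaks had more than 1, and the most under a single peak was 9.

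**Figure D3:**
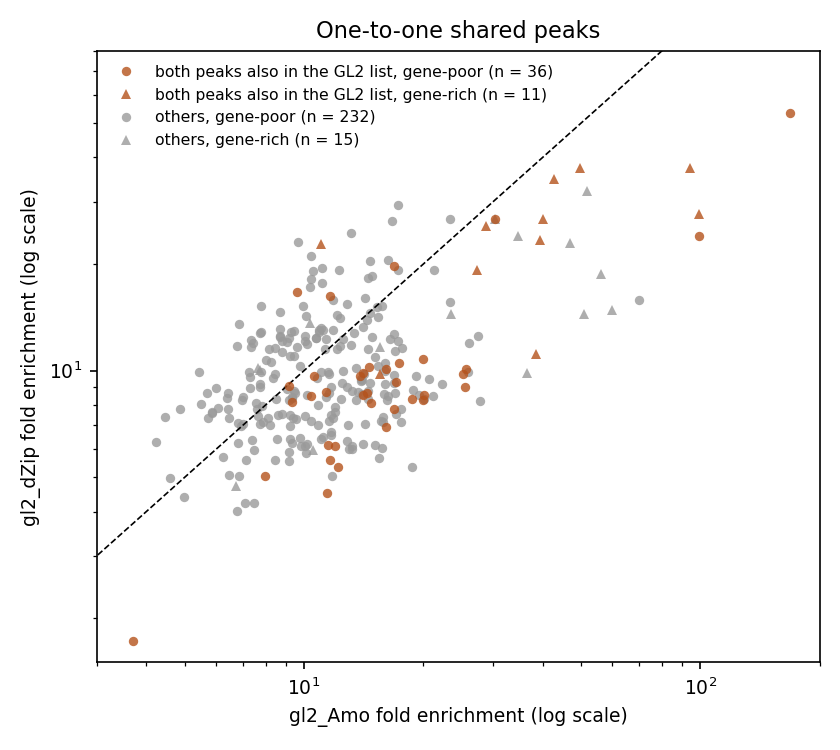
Fold enrichment in gl2_dZip (vertical, log scale) against gl2_Amo (horizontal, log scale) for 294 one-to-one pairs; colour marks pairs in which both peaks also overlap a GL2 peak, shape marks bin type, and the dashed line is equality. The pair with the highest values, 53.5 and 169, is also in the GL2 list. Folds are not adjusted for depth, so the side of the line does not rank the forms.

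Private peaks of gl2_dZip lay in pseudogenes more often than its shared peaks. A summit was in a pseudogene for 37 of 415 shared gl2_dZip peaks (8.92%, interval 6.54 to 12%) and 264 of 750 private ones (35.2%, interval 31.9 to 38.7%), beside 25.8% of all gl2_dZip peaks. In gl2_Amo these were 37 of 512 shared peaks (7.23%) and 378 of 2719 private peaks (13.9%), beside 12.8% of all gl2_Amo peaks. Pseudogene spans covered 35.8% of gene-poor bins, and the share there was 9.45% for shared gl2_dZip peaks, 44.4% for private gl2_dZip peaks, 7.79% for shared gl2_Amo peaks and 20.4% for private gl2_Amo peaks. In gene-rich bins, where the spans covered 3.49%, private gl2_dZip peaks had 21.2% and private gl2_Amo peaks 8.08%. In a class of like length and bin type, chosen after the data had been seen (peaks over 200 to 500 bp in gene-poor bins), the order within gl2_dZip was the same, with 13.2% of 151 shared and 42.5% of 219 private peaks. Within gl2_Amo that class held 7.63% of 236 shared and 8.69% of 449 private peaks, with intervals of 4.88 to 11.7% and 6.42 to 11.7%, so the difference seen in the whole gl2_Amo list lay within counting error there. Of private gl2_dZip peaks 87.6% had an FDR of 100%, against 64.1% of shared ones. With those peaks left out, 38.7% of 93 private gl2_dZip peaks had a summit in a pseudogene.

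Single pseudogenes held several summits. Of 4843 annotated pseudogenes on the 5 chromosomes, 240 held summits of gl2_dZip and 366 held summits of gl2_Amo. At least 2 summits of the list lay in 41 of the 240 and in 42 of the 366. In both sets were 81, which is 33.8% of the gl2_dZip set and 22.1% of the gl2_Amo set. Of these 81, 33 were reached through overlapping peaks. AT5G32690 held the most, with 3 gl2_dZip summits and 6 gl2_Amo summits. AT5G29975 had 4 private gl2_dZip and 2 private gl2_Amo summits, while AT4G06656 and AT5G28263 each had 4 private gl2_dZip summits and 0 in gl2_Amo. The annotation used gives these loci no further name.

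Protein-coding genes were rarely near shared peaks. Such a gene lay within 1 kb of the summit for 25 of 415 shared (6.02%) and 205 of 750 private gl2_dZip peaks (27.3%), beside 19.7% of all gl2_dZip peaks. The same held for 26 of 512 shared (5.08%) and 1210 of 2719 private gl2_Amo peaks (44.5%), beside 38.3% of all gl2_Amo peaks. Genes with 1 kb on each side covered 74.5% of the chromosomes and 20.8% of the gene-poor bins. In gene-rich bins, where they covered 85%, the shares were 52.9% of 34 shared and 63% of 297 private gl2_dZip peaks, and 38% of 50 shared and 77.5% of 1436 private gl2_Amo peaks. The bin chr4:2500001-3000000 held 11 of those 34 and 26 of those 50 shared peaks. In all, 292 genes (1.06% of 27432) were near a gl2_dZip peak and 1586 (5.78%) near a gl2_Amo peak. Both lists were near 47 genes, which is 0.171% of all genes, 16.1% of the gl2_dZip genes and 2.96% of the gl2_Amo genes. Overlapping peaks accounted for 27 of them, and private peaks alone for the other 20.

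**Figure D4:**
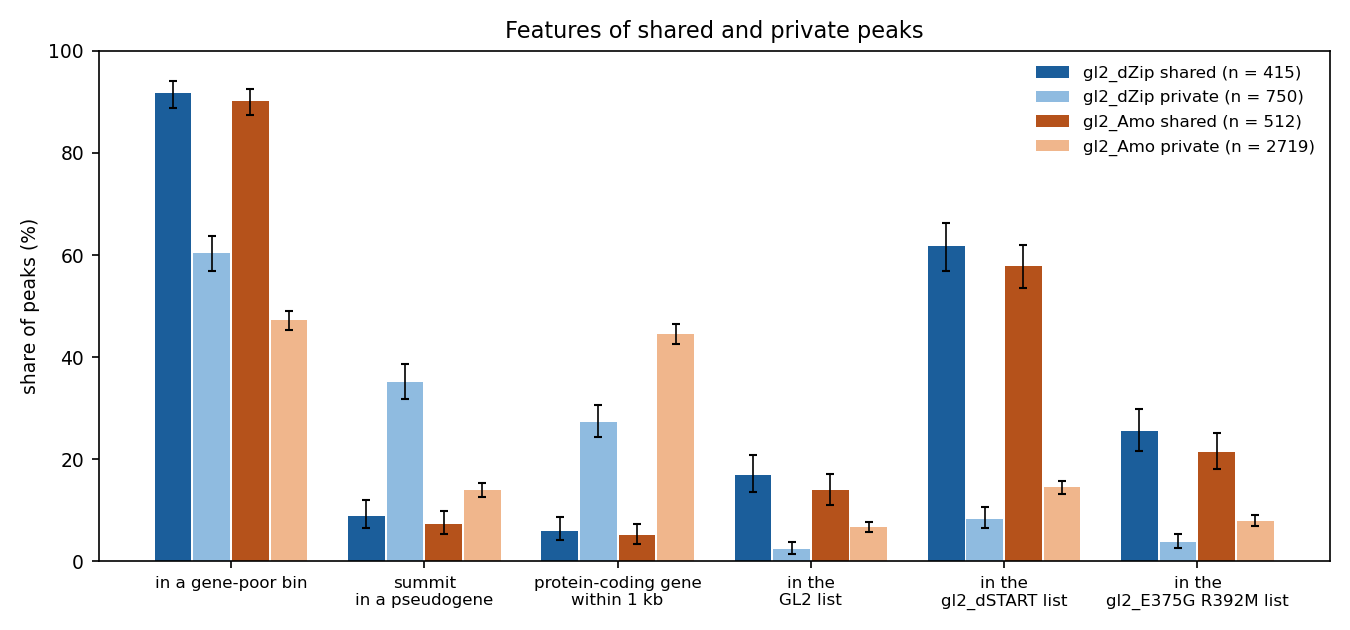
Percent of peaks with each feature in shared and private gl2_dZip and gl2_Amo peaks; bars are shares and lines are 95% Wilson intervals. Private gl2_dZip peaks have the highest share of pseudogene summits (35.2%), and shared peaks have the highest shares in gene-poor bins and in the other lists.

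Shared gl2_dZip peaks were found in the wild-type GL2 list more often than private ones. This held for 70 of 415 shared (16.9%, interval 13.6 to 20.8%) and 18 of 750 private gl2_dZip peaks (2.4%, interval 1.52 to 3.76%), beside 7.55% of all gl2_dZip peaks. The same order held in gene-poor bins among peaks over 200 to 500 bp, with 11.9% of 151 shared and 2.74% of 219 private peaks. For gl2_Amo it was 71 of 512 shared (13.9%, interval 11.1 to 17.1%) and 182 of 2719 private peaks (6.69%, interval 5.81 to 7.7%), beside 7.83% of all gl2_Amo peaks. That order turned round in gene-poor bins among peaks over 200 to 500 bp, where 9.32% of 236 shared and 13.8% of 449 private gl2_Amo peaks were in the GL2 list, with intervals of 6.24 to 13.7% and 10.9 to 17.3%. At any length, the order was that of the whole list in gene-poor bins, with 13% of 462 shared and 9.98% of 1283 private gl2_Amo peaks, and in gene-rich bins, with 22% of 50 shared and 3.76% of 1436 private ones. Of those 50 shared peaks, 26 lay in the bin chr4:2500001-3000000.

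Seen from the GL2 list, 72 of its 706 peaks without gl2-5 overlap (10.2%) met both lists, 19 met gl2_dZip alone, 195 met gl2_Amo alone and 420 (59.5%) met neither. The 420 peaks had a median of 6 tags and 66.9% had a gene within 1 kb, while the 72 peaks had a median of 29 tags and 16.7% had one. A gene was within 1 kb for 36.8% of the 19 peaks and 19.5% of the 195 peaks. Bin type differed too, as gene-poor bins held 22.1% of the 420 peaks and 84.7% of the 72. A GL2 site missing from either list did not pass the caller's threshold with these tags, which does not show it to be unbound. Shared peaks also recurred in the other altered forms. The deposited gl2_dSTART list, called against its own input, held 61.7% of shared and 8.4% of private gl2_dZip peaks, beside 27.4% of all gl2_dZip peaks. The gl2_E375G R392M list held 25.5% of shared and 3.73% of private gl2_dZip peaks, beside 11.5% of all. For gl2_Amo, gl2_dSTART held 57.8% of shared and 14.5% of private peaks, beside 21.3% of all gl2_Amo peaks, and gl2_E375G R392M held 21.5% of shared and 7.94% of private peaks, beside 10.1% of all. Among peaks over 200 to 500 bp in gene-poor bins, the gl2_dSTART share was 48.3% of shared and 11.4% of private gl2_dZip peaks, but 46.2% of shared and 41.2% of private gl2_Amo peaks. In that class the gl2_E375G R392M share was 14.6% of shared and 4.57% of private gl2_dZip peaks. For gl2_Amo its order turned round, with 13.6% of shared and 15.1% of private peaks. Their intervals, 9.77 to 18.5% and 12.1 to 18.8%, overlapped.

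A small set of shared peaks lay near genes and in the GL2 list. Of 27 pairs with a gene within 1 kb of the gl2_dZip summit, 12 overlapped a GL2 peak with both peaks, beside 72 of all 545 pairs (13.2%). The fold was higher in gl2_Amo in 26 of the 27, beside 71.9% of all 545 pairs. Of the 27 pairs, 23 matched one to one, with the higher fold in gl2_Amo in 22, and 5 lay near the single gene AT4G05612. The exception was CIPK23, a protein kinase that activates the AKT1 potassium channel in root potassium uptake. Its peak at chr1:10655846-10655944 had a fold of 22.85 on 24 tags in gl2_dZip, 11.06 on 34 tags in gl2_Amo and 10.64 on 11 tags in GL2. A peak in AT4G39900, next to UBP3, a ubiquitin-specific protease gene, at chr4:18510439-18510586 had a fold of 37.43 on 20 tags in gl2_dZip, 94.38 on 23 tags in gl2_Amo and 77.97 on 11 tags in GL2. Near AT1G33860, at chr1:12294175-12294313, the folds were 27.62 in gl2_dZip, 99.38 in gl2_Amo and 16.32 in GL2. Order of the folds among the 3 forms thus differed from site to site. The lists rested on 1248287 (gl2_dZip), 538666 (gl2_Amo) and 352707 (GL2) retained tags, and folds were not adjusted for that. At AT1G09970, 11 gl2_dZip tags went with a fold of 26.74, and 7 gl2_Amo tags with 30.25. A higher fold in 1 list is therefore not read as stronger binding of that form.

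At AT5G24610, chr5:8428146-8428248, the fold was 37.43 in gl2_dZip, 49.58 in gl2_Amo and 141.76 in GL2. AT2G01460, chr2:208271-208383, had 26.74 in gl2_dZip, 40.09 in gl2_Amo and 184.29 in GL2. MEE38, a gene named for a maternal effect on embryo arrest, had a shared peak at chr3:15168047-15168308 with 10.08 in gl2_dZip, 25.69 in gl2_Amo and 10.26 in GL2. Another gl2_Amo peak in MEE38, at chr3:15167275-15167523, was private, with a fold of 65.67 on 34 tags and 13.29 in GL2. All folds are the authors' own values for single peaks.

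**Figure D5:**
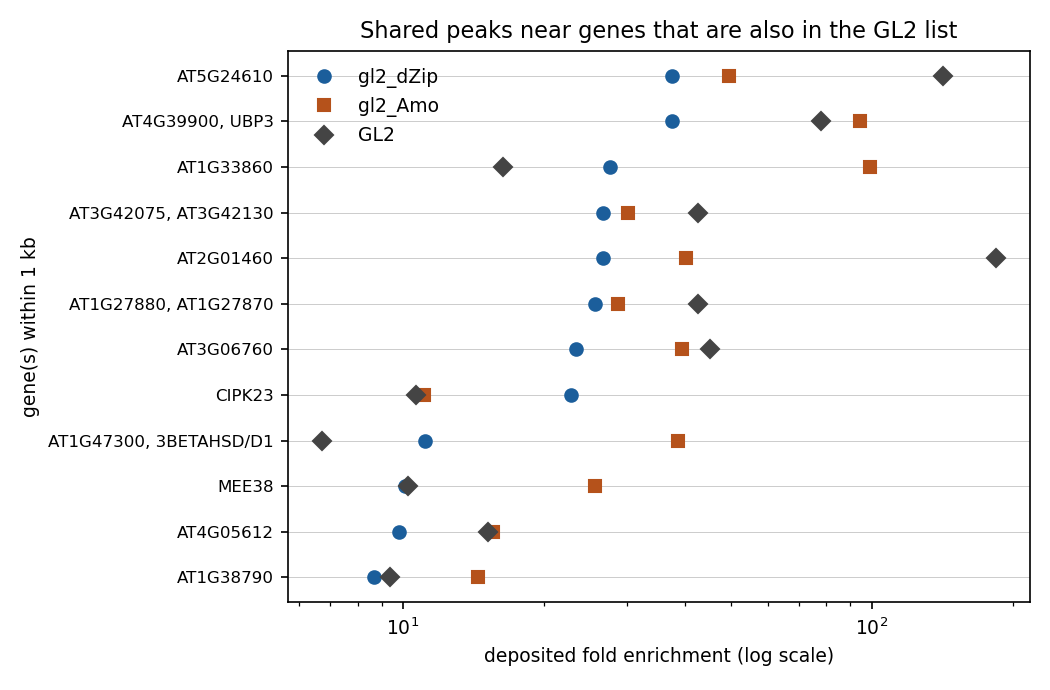
Deposited fold enrichment (log scale) in gl2_dZip, gl2_Amo and GL2 at the 12 shared peaks that have a protein-coding gene within 1 kb and overlap a GL2 peak. The gl2_dZip value is the lower of the pair at 11 sites and the higher at CIPK23. Folds are not adjusted for the unequal depth of the lists.

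Away from genes, the pair with the highest folds was chr1:16868402-16868519, with 53.48 on 22 tags in gl2_dZip, 168.52 on 50 tags in gl2_Amo and 106.32 on 16 tags in GL2. The highest product of scores belonged to a 7254 bp gl2_dZip peak at chr4:3054294-3061547, with 11729 tags and a fold of 1.72, which matched a gl2_Amo peak with 7057 tags and a fold of 3.71. A GL2 peak covered the same stretch with 4278 tags and a fold of 4.54. High score there went with high tag counts and low folds.

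Private gl2_dZip peaks near genes had high folds on few tags. The highest was at NRPD1B, which encodes the largest subunit of RNA polymerase V and works in RNA-directed DNA methylation, with a fold of 58.82 on 27 tags at chr2:16723144-16723355. A GL2 peak there had a fold of 49.62 on 9 tags. The peak near AT5G50140 at chr5:20395141-20395344 had 34.72 on 31 tags, beside 28.88 on 84 tags in GL2. Near ELP, chr1:4091023-4091170, the fold was 32.09 on 19 tags in gl2_dZip and 18.81 on 48 tags in GL2. AHBP-1B (a TGA-type bZIP transcription factor gene) and CLT3 (a chloroquine-resistance-transporter-like gene) each had 40.11 in gl2_dZip and no GL2 peak. The nearest gl2_Amo peaks to these 5 sites, gl2-5 overlaps included, were between 11986 and 83071 bp away.

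Private gl2_Amo peaks included wide peaks in gene-poor bins and narrow peaks near genes. The longest, chr4:3965566-3987778, was 22213 bp with 14924 tags and a fold of 6.85, and it overlapped a GL2 peak with a fold of 5.72. Of the 10 private gl2_Amo peaks with the highest scores, the one at chr4:3012247-3013020 alone had no GL2 overlap. Over all private gl2_Amo peaks, 6.69% had one. The 10 ran from 422 to 22213 bp in length, and a longer peak meets the 1 bp rule more easily. Near AT2G32560, chr2:13824563-13824711, the fold was 82.1 on 26 tags in gl2_Amo and 120.5 on 18 tags in GL2, and the nearest gl2_dZip peak was 237819 bp away. A peak near EXPB3, a beta-expansin gene of cell wall loosening, at chr4:13998618-13998692 had 56.17 on 13 tags and no GL2 overlap. Some private peaks had a near miss: 105 of 750 gl2_dZip peaks and 241 of 2719 gl2_Amo peaks lay within 500 bp of the other list. More than 10 kb separated 34.4% of private gl2_dZip and 60.8% of private gl2_Amo peaks from it.

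Of 66 listed genes of the HD-Zip class IV family, trichome and root hair patterning, root hairs and known GL2 targets, and the epidermis and cuticle, 0 had a shared peak within 1 kb. Over all 27432 genes, 28 (0.102%) were near a shared gl2_dZip peak and 27 (0.0984%) near a shared gl2_Amo peak, so nothing particular to the listed genes can be read from that count. A private gl2_dZip peak lay in GL2 itself at chr1:30037510-30037618, with a fold of 42.78 on 18 tags. Before the removal of gl2-5 overlaps, the nearest gl2_Amo peak was 86 bp away. All 5 gl2_Amo peaks at GL2 and another 6 gl2_dZip peaks there overlapped gl2-5 peaks and had been removed. At PDF2, a class IV HD-Zip gene of the shoot epidermis, all 11 gl2_dZip peaks and 13 of 14 gl2_Amo peaks had been removed for the same reason, and 1 gl2_Amo peak was left, with a fold of 38.89 at chr4:2476461-2476639. That peak counts as private only because the gl2_dZip peak it overlapped had been removed with the gl2-5 overlaps, the 1 such case among 2719. EXP7, an expansin of root hair cells, had 1 private gl2_Amo peak with a fold of 21.6. The median fold of private gl2_Amo peaks in gene-rich bins was 21.6 as well. After the filter, 1 of the 66 listed genes had a gl2_dZip peak and 2 had a gl2_Amo peak, beside 1.06% and 5.78% of all genes. At MYB23, a trichome MYB factor, the single peak of each list overlapped a gl2-5 peak. The part that the transgene's own sequence plays in signal at GL2 was not tested.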

How the data were processed

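Each genotype has a single list of peaks. MACS 1.4.2 made it from merged ChIP reads and 1 input, per the file headers, with a p cutoff of 1e-05 and 1 tag retained per position. The fitted fragment size was 52 bp for gl2_dZip and 58 bp for gl2_Amo, near the tag length of 51 bp, and its effect on the peaks was not tested. Per the submitters' processing notes, Bowtie2 2.2.3, MACS2 1.4.2, bcl2fastq and the TAIR10 build were used. Tags per peak are deposited counts of retained tags, unscaled. The score, as deposited, is the negative log10 p-value multiplied by 10, the deposited fold enrichment is a ratio to local background, and the deposited FDR is a percent.

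Overlaps, Wilson intervals and bins were computed with python 3.11.15, pandas 2.3.3 and scipy 1.17.1, and the overlap code was tested on simulated intervals and against bedtools 2.31.1. Overlap meant 1 bp or more. Distances from a private peak to the other list were measured to all its peaks, with gl2-5 overlaps kept. The GL2 list was filtered against gl2-5 like the others, while the gl2_dSTART and gl2_E375G R392M lists were used as deposited. Genes and pseudogenes came from a RefSeq table (TAIR10.1), used for names and spans only, and gene-poor bins were set by its protein-coding genes. Peak coordinates are the authors', on TAIR10. Because the build of the spans carries another version name, distances to genes hold as far as the chromosome sequences match. The labels speak of 3 replicates per genotype, and 2 gl2_dZip ChIP libraries were among those used here.

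Named pairs and peaks were the 10 highest by product of folds or scores, the 10 highest-scoring private peaks of each list, the 8 highest-scoring peaks near genes in each class, every shared pair near a gene and in GL2, all listed genes with a peak, and the pseudogenes with the most summits; examples of these are given. The members and lists were chosen with earlier results of these data known. Alternatives changed the overlap rule, the score, FDR, length and list size limits, the gl2-5 filter, the bins and the gene window.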

Additional observations from a re-analysis of the deposited data

How the results depend on the processing

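No paired analysis was possible because each list came from merged libraries, so no replicate could be left out either. Of 129 alternative values for 12 shares, 57 lay within the 95% interval of the reported share and 72 outside it. The cause of these moves was not tested beyond what each setting removes. The order of shared above private gl2_dZip peaks in the GL2 share held in all 10 alternatives run, and that of private above shared in the gl2_dZip pseudogene share in all 11. For gl2_Amo, shared stood above private in the GL2 share in 9 of 10, the exception being gene-poor bins with peaks over 200 to 500 bp. In what follows, values are percent of peaks. "Genes" means a protein-coding gene within 1 kb.

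With 50% reciprocal overlap, 23.4 of gl2_dZip and 8.45 of gl2_Amo peaks were shared, the GL2 share was 10.6 for shared gl2_dZip, 11 for shared gl2_Amo and 4.23 for private gl2_Amo, the shared gl2_dZip pseudogene share was 5.86, and genes were near 23.5 of private gl2_dZip and 41.1 of private gl2_Amo peaks. With peaks within 500 bp counted, 44.4 of gl2_dZip and 23.2 of gl2_Amo peaks were shared, with GL2 shares of 22.7 (shared gl2_Amo) and 9.67 (private gl2_Amo), 13.9 in pseudogenes (shared gl2_dZip) and 48.4 near genes (private gl2_Amo). With scores at or above the list median, 39.2 of gl2_dZip peaks were shared, GL2 shares were 11.8 (shared gl2_dZip), 9.56 (shared gl2_Amo) and 8.13 (private gl2_Amo), pseudogene shares 5.24 (shared gl2_dZip) and 7.25 (private gl2_Amo), and gene shares 16.6 (private gl2_dZip) and 41.9 (private gl2_Amo). With lists no longer than the gl2_dZip list, 22.8 of gl2_dZip and 26 of gl2_Amo peaks were shared, GL2 shares were 24.8 (shared gl2_dZip), 21.8 (shared gl2_Amo) and 17.6 (private gl2_Amo), pseudogene shares 4.14 (shared gl2_dZip) and 4.76 (private gl2_Amo), and gene shares 23.5 (private gl2_dZip) and 40.7 (private gl2_Amo).

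With gl2-5 overlaps kept, 40.2 of gl2_dZip and 17.2 of gl2_Amo peaks were shared, GL2 shares were 31.4 (shared gl2_dZip), 26.9 (shared gl2_Amo) and 11.6 (private gl2_Amo), and 17 of shared gl2_dZip peaks were near genes. Without peaks over 1 kb, 28.3 of gl2_dZip and 10 of gl2_Amo peaks were shared. In gene-rich bins alone, 10.3 of gl2_dZip and 3.36 of gl2_Amo peaks were shared, GL2 shares were 32.4 (shared gl2_dZip), 22 (shared gl2_Amo) and 3.76 (private gl2_Amo), pseudogene shares 2.94 (shared gl2_dZip), 21.2 (private gl2_dZip) and 8.08 (private gl2_Amo), and gene shares 52.9 (shared gl2_dZip), 63 (private gl2_dZip) and 77.5 (private gl2_Amo). Using the whole peak, 13.5 of shared gl2_dZip peaks met a pseudogene. With genes within 500 bp, the shares were 22.9 (private gl2_dZip) and 39.7 (private gl2_Amo).

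The remaining settings were chosen after seeing the data. Without gl2_dZip peaks at an FDR of 100%, 61.6 of gl2_dZip and 6.56 of gl2_Amo peaks were shared, and private gl2_dZip peaks had 6.45 in GL2, 38.7 in pseudogenes and 18.3 near genes, while 40.6 of private gl2_Amo peaks were near genes. Without the fullest bin, 30.1 of gl2_dZip and 12.6 of gl2_Amo peaks were shared. In gene-poor bins with peaks over 200 to 500 bp, 40.8 of gl2_dZip and 34.5 of gl2_Amo peaks were shared, GL2 shares were 11.9 (shared gl2_dZip), 9.32 (shared gl2_Amo) and 13.8 (private gl2_Amo), pseudogene shares 13.2 (shared gl2_dZip), 42.5 (private gl2_dZip) and 8.69 (private gl2_Amo), and gene shares 0.662 (shared gl2_dZip), 1.37 (private gl2_dZip) and 2.9 (private gl2_Amo). The shares for gl2_Amo peaks in GL2 were also added then. Private peaks held medians of 16 tags in gl2_dZip and 7 in gl2_Amo, so single private peaks rest on few tags.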
